A study of Mus musculus with 15 samples.

Results

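The 8 genes described here encode the neuronal intermediate filament subunits and the classical microtubule-associated proteins (MAPs): *Nefl*, *Nefm*, *Nefh* and *Ina*, and *Mapt*, *Map1a*, *Map1b* and *Map2*. They were taken by their GENCODE M21 symbols from the 38561 genes counted in laser-captured mouse Purkinje cells (PCs), the large GABAergic output neurons of the cerebellar cortex. PCs were collected from male mice of the strain labelled C56/BL6 (C57/BL6 in the study's methods) at birth (P0) and on postnatal days 4, 8, 14 and 21 (P4 to P21), with 3 samples per time point, no treatment and no genetic change in any group. Each sample held RNA of 1000 PC soma cut from brain sections at P4 to P21, while at P0, before PCs form a single layer, clusters of PCs were cut from 6 sections. The study followed these time points to describe how the PC transcriptome changes while the dendrites grow and synapses form, and the comparison made here is that of levels over postnatal age.

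Neurofilaments are the intermediate filaments of neurons, and they fill large myelinated axons and help to set axon calibre. The light chain NF-L (*Nefl*) is the obligate core of the polymer, the medium and heavy chains NF-M (*Nefm*) and NF-H (*Nefh*) carry long phosphorylated tails that project from it, and alpha-internexin (*Ina*) is a further subunit of filaments in the central nervous system, known for its early appearance in development. MAPs bind along microtubules and stabilise or space them. Tau (*Mapt*) is mainly axonal, MAP2 (*Map2*) is the classical marker of dendrites, MAP1B (*Map1b*) is known from growing axons of the immature brain, and MAP1A (*Map1a*) from dendrites of the mature brain. In PCs, neurofilament antibodies are widely used to stain the axon and the basket cell terminals around the soma.

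All 8 genes were tested. On GRCm38, *Nefl* (ENSMUSG00000022055) lies on chr14:68083863-68089095, plus strand. *Nefm* (ENSMUSG00000022054) lies on chr14:68082590-68124846, minus strand, and through 1 of its 2 annotated transcripts it shares 1108 exon bases with *Nefl*, which is 32.8% of the exon length of *Nefl*. *Nefh* (ENSMUSG00000020396) is on chr11:4938754-4948064, minus strand, and *Ina* (ENSMUSG00000034336) on chr19:47014698-47025327, plus strand. *Mapt* (ENSMUSG00000018411) is on chr11:104231390-104332090, plus strand, and *Map1a* (ENSMUSG00000027254) on chr2:121289600-121310832, plus strand. *Map1b* (ENSMUSG00000052727) is on chr13:99421446-99516540, minus strand, and *Map2* (ENSMUSG00000015222) on chr1:66175273-66442583, plus strand. *Ina* shares 456 exon bases with *Nt5c2*, *Map1a* 272 with *Ppip5k1* and *Map2* 124 with the antisense gene *Gm10558*. The library kit does not mark strand and the strand setting of the counting is not given in the sources used here, so reads in these shared bases cannot be assigned with certainty, and splice forms of tau or MAP2 were not resolved by counts per gene.

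RefSeq promoters (GRCm38.p6) were matched for 4 of the 8 genes, *Ina*, *Map1a*, *Map1b* and *Map2*. Those of *Map1a*, *Map1b* and *Map2* are shown because these genes changed with age in opposite directions, as described below. The 250 bases before the RefSeq start are written 5′ to 3′ on the strand of the gene. This start can differ from the GENCODE M21 positions given above, and the *Map2* window runs past 66175273, where that gene begins there. Capitals mark matches, on either strand, to the core letters of the TATA box, the GC box and the CCAAT box. The TATA box was searched as TATAAA. The GC box was searched as GGGCGG, which on the other strand appears as its reverse complement. *Map1a* is taken from chr2:121289352-121289601 on the plus strand, *Map1b* from chr13:99516603-99516852 on the minus strand and *Map2* from chr1:66175079-66175328 on the plus strand.
Map1a: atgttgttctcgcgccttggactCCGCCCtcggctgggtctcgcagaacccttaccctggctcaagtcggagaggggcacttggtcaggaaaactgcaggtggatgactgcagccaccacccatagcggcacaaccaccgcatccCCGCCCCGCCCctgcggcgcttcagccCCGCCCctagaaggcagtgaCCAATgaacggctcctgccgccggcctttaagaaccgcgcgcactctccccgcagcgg
Map1b: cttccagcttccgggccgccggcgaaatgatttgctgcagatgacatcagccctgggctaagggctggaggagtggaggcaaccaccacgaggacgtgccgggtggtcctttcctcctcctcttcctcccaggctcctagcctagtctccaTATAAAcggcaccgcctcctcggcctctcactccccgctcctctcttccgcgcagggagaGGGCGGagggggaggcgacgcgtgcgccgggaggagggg
Map2: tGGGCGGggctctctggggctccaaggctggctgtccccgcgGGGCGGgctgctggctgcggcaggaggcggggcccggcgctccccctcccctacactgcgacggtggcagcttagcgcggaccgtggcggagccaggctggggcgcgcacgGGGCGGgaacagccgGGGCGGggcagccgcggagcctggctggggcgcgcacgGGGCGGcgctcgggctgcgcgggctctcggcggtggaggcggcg
The *Map1a* window, of a gene that rose, held 4 GC boxes, 2 of them sharing 1 base, and 1 CCAAT box. The *Map1b* window, of a gene that fell, held a TATA box 99 to 94 bases before the start and 1 GC box. The *Map2* window, of another gene that fell, held 5 GC boxes and no other match. The promoter of *Ina*, whose trend was not called, held 2 GC boxes. Matches to the TATA box were found in 12.4% of the 32851 promoter windows of the same length, to the GC box in 32.7% and to the CCAAT box in 33.8%. GC content was 66.0% for *Map1a*, 66.4% for *Map1b*, 70.8% for *Ina* and 81.2% for *Map2*, the last above that of 99.1% of all windows. These matches are letters in a window and not measured binding sites.

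Total counts on genes ranged from 3409371 to 7814951 per sample. All 6 PC markers examined (*Calb1*, *Itpr1*, *Pcp2*, *Pcp4*, *Car8*, *Ppp1r17*) had counts in every sample, and their summed level rose from 4549 to 6007 CPM (counts scaled to the same library size, without regard to length) at P0 to 36886 to 46640 CPM at P21. Of the 8 glial markers none was at 0, and their sum was 4771 ± 810.2 CPM at P0 and 3998 ± 792 at P21 (SD, n = 3), with a maximum of 9344 ± 861 at P8. The 5 oligodendrocyte markers summed to 22.4 ± 11.8 CPM at P0 and 569 ± 241 at P21, and 5 granule neuron markers, with *Atoh1* at 0 in all 15 samples, to 280 ± 62.9 and 351 ± 105 CPM. Markers of interneurons (5 genes), of nuclear neurons and unipolar brush cells (3), of vessels (3) and of microglia (4) summed to means of at most 75.8 CPM at any time point. Reads not fully contained in an annotated feature, which may still lie within genes, made up 24.1% to 29.8% at P0 and 16.7% to 23.4% later. In such bulk samples fewer cells of a type and less RNA per cell cannot be told apart, and the part that the cell mixture or the capture of clusters at P0 has in the results below was not tested.

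Levels are given as RPKM, the reads of a gene per kilobase of its summed exon length, scaled to a common library size by TMM (the trimmed mean of M-values). The trend is the slope of log2 level per postnatal day in edgeR's quasi-likelihood test over all 15 samples, adjusted over the 14293 genes tested. By this trend *Nefh* and *Map1a* rose with age, *Map1b*, *Map2* and *Nefl* fell, and *Nefm*, *Ina* and *Mapt* were not called in either direction. Thus 2 of 8 genes rose, where 12.1% of all tested genes did, and 3 of 8 fell, where 14.1% did. When the 5 time points were compared as separate groups, 4 of the 8 genes differed between them (*Nefh*, *Map1a*, *Map1b* and *Map2*), beside 19.3% of all tested genes. The median slope of the 8 genes was −0.018 log2 units per day, and that of all tested genes −0.0077. The calls of *Nefh*, *Map1a*, *Map1b* and *Map2* held in all 23 alternative trend fits, including the fit without the P0 samples.

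**Figure D1:**
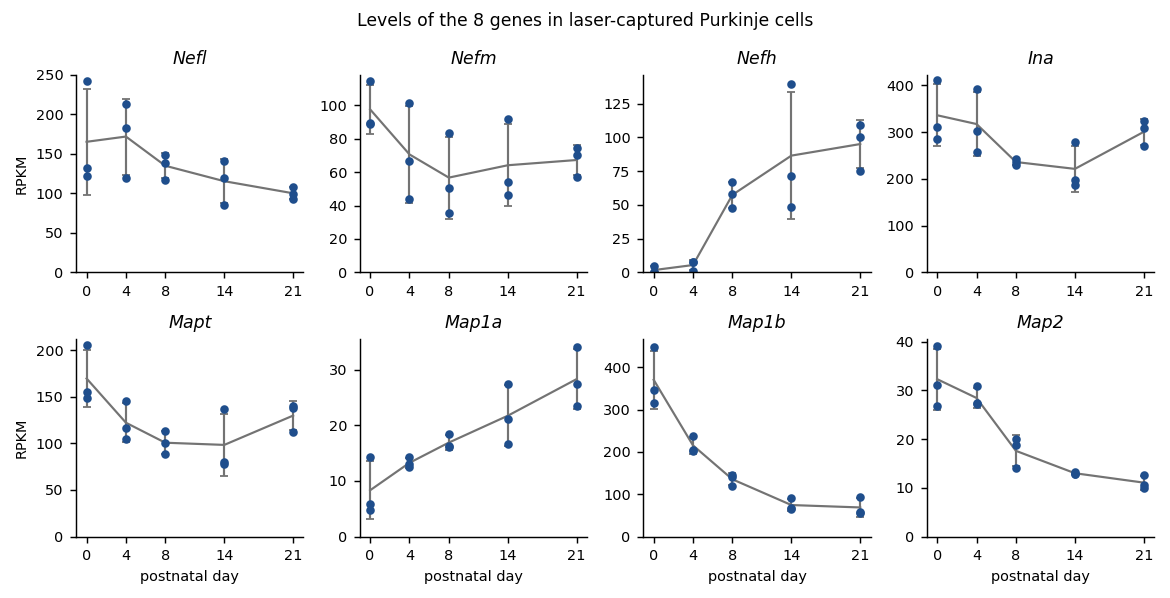
RPKM (vertical axis, linear and from 0) against postnatal day for each of the 8 genes. Points are single samples, and lines and bars are the mean ± SD of 3 samples. *Nefh* stays below 10 RPKM up to P4 and lies above 45 from P8, *Map1b* and *Map2* descend, *Map1a* ascends, and the samples of the other genes overlap over most of the course.

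*Nefh*, the heavy chain, showed the widest change of the 8 genes, from nearly undetected at birth to a level close to that of *Nefl* at P21. The 3 samples at P0 had 0, 99 and 1 counts, or 0, 4.92 and 0.0507 RPKM, where 3 counts would have been 0.144 RPKM in the sample with none. At P4 the samples had 7.68, 7.81 and 0.772 RPKM, and at P8 47.4, 58.0 and 66.7. At P14 they had 139.5, 48.6 and 71.3 RPKM, and at P21 100.6, 75.3 and 109.3. Every sample from P8 on was at least 47.4 RPKM and every earlier sample at most 7.81. The early and late samples thus did not overlap. P0 overlapped P4, and P14 overlapped both P8 and P21, while all P21 samples were above all P8 samples.

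The means of *Nefh* were 1.66 ± 2.82 RPKM at P0 and 5.42 ± 4.02 at P4, then 57.4 ± 9.64 at P8, 86.5 ± 47.3 at P14 and 95.1 ± 17.7 at P21 (SD, n = 3). The trend rose by 0.27 log2 units per day (SE 0.071, adjusted p = 0.00791 in edgeR's test), a steeper slope than that of 98.6% of tested genes. Without the P0 samples the slope was 0.17 (adjusted p = 0.0433). The level at P21 was 57.3-fold that at P0, but the P0 mean rests on replicate 2, the other P0 samples having 0 and 1 counts. The widest step lay between P4 and P8, where the mean was 10.6-fold higher, and this step missed the threshold (log2 3.41, SE 0.975, adjusted p = 0.127). It passed in 2 of 21 alternative fits, without P0 replicate 2 (adjusted p = 0.00724) and without a filter on low counts (0.0394). DESeq2 (adjusted p = 0.167) and limma-voom (0.416) did not call it. The spread of *Nefh* between samples of a time point, pooled over the 5 time points, was wide. The SD of log2 CPM was 1.39, above that of 96.4% of 9672 genes compared, against 0.20 to 0.47 for the other 7 genes. By time point, the SD of RPKM was 171% of the mean at P0, 74.3% at P4 and 54.7% at P14. It was 16.8% at P8 and 18.6% at P21. The sum of PC markers and that of oligodendrocyte markers rose over the same days. From P4 to P8 the mean marker sums of the other cell types were higher as well, among them glia (7375 to 9344 CPM) and granule neurons (369 to 630). The exception was that of nuclear neurons and unipolar brush cells (41.4 to 38.6 CPM).

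*Nefl*, the core subunit, declined slowly and stayed among the more abundant of the 8 genes. The samples had 242.7, 131.8 and 121.4 RPKM at P0, 119.4, 182.7 and 213.8 at P4, and 138.7, 117.4 and 148.8 at P8. They had 141.4, 85.9 and 119.0 RPKM at P14 and 98.7, 93.5 and 108.2 at P21. All 3 samples at P21 lay below all 3 at P0, whereas each pair of neighbouring time points overlapped. The mean fell from 165 ± 67.2 RPKM at P0 to 100.1 ± 7.46 at P21, and the trend fell by 0.039 log2 units per day (SE 0.011, adjusted p = 0.0166). This call was lost without P0 replicate 1, the highest sample (adjusted p = 0.0539), and when log2(day + 1) replaced the day (0.0606), and it held without all P0 samples (0.0223). With the time points as separate groups *Nefl* was not called (adjusted p = 0.158). It was called in 2 of 21 alternative fits, by DESeq2 (adjusted p = 0.0428) and by edgeR with total-count scaling (0.0229).

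*Nefm*, the medium chain, was not called for a trend, and its samples overlapped between neighbouring time points. It had 114.3, 88.9 and 89.5 RPKM at P0, 44.0, 101.4 and 66.5 at P4, 35.8, 50.7 and 83.6 at P8, 92.0, 46.5 and 53.8 at P14, and 70.0, 57.3 and 74.5 at P21. The slope was −0.020 log2 units per day with a 95% interval from −0.051 to 0.0097 (adjusted p = 0.332). The P0 samples were all above those of P21, and without P0 the slope was 0.0024. RPKM of *Nefm* depends on the exon length taken. Over the 3334 bases of the transcript that does not reach into *Nefl*, in place of 5782, its values would be 1.73-fold higher at every time point, from 98.4 ± 42.5 RPKM at P8 to 169 ± 25.2 at P0. Its changes over time do not depend on this length.

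*Ina* was the most abundant of the 8 genes from P4 on, and no trend was called. It had 311.6, 411.2 and 285.3 RPKM at P0, 257.9, 391.6 and 302.3 at P4, and 236.0, 229.4 and 242.7 at P8. At P14 it had 278.3, 187.4 and 198.4 RPKM and at P21 323.3, 308.6 and 270.0. The P8 samples lay below all P4 samples, and the P21 samples overlapped those of P0, P4 and P14. The slope was −0.012 with a 95% interval from −0.033 to 0.0098 log2 units per day (adjusted p = 0.444). A slope can miss a fall that is followed by a rise. With the time points as separate groups the adjusted p was 0.0983. It lay below 0.05 in 4 of 21 alternative fits, DESeq2 and limma-voom among them. Neither the lower mean at P8 than at P4 (log2 −0.43, SE 0.193, adjusted p = 0.401) nor the higher mean at P21 than at P14 (log2 0.44, SE 0.194, adjusted p = 0.680) passed the test.

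Expressed as shares of the summed RPKM of the 4 filament genes within a sample, *Nefh* made up 0.261% ± 0.443 at P0 and 1.02% ± 0.835 at P4, against 11.8% ± 1.27 (P8), 16.9% ± 4.17 (P14) and 16.8% ± 2.69 (P21) at the later ages (SD, n = 3). The early shares rest on few samples, with 0.00511% at P0 without replicate 2, and 0.637% at P4 without replicate 1 or 1.47% without replicate 3. The share of *Nefl* was 27.2% at P0 and 30.4% at P4, and the later means were 27.8% (P8), 24.0% (P14) and 17.8% (P21). Its 3 samples at P21 (16.6%, 17.5% and 19.3%) were below all others. The share of *Nefm* moved between means of 11.5% and 16.4%, and that of *Ina* between 46.1% and 56.4%. The summed level of the 4 genes was 601 ± 91.7 RPKM at P0 and 563 ± 29.0 at P21, with the lowest mean, 485 ± 49.1, at P8. The summed level at P21 thus lay within the range of P0 while its makeup had shifted towards *Nefh*. These shares are descriptions without a test. With the shorter *Nefm* length, and the *Nefl* length left unchanged, the share of *Nefm* became 18.2% to 25.3%.

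Of the MAP genes, *Map1b*, the MAP of growing neurites, fell from P0 to P14 and had similar means at P14 and P21. Its samples had 447.8, 347.4 and 316.7 RPKM at P0, 238.9, 205.0 and 202.7 at P4, and 119.0, 140.6 and 146.5 at P8. At P14 they had 90.6, 66.1 and 66.7 RPKM and at P21 54.7, 57.5 and 94.2. No sample of P0, P4 or P8 overlapped another time point, and only the P14 and P21 samples overlapped, with P21 replicate 3 above all of P14. The mean fell from 371 ± 68.5 RPKM at P0 to 68.8 ± 22.0 at P21, to 0.186 of the P0 level. The trend fell by 0.12 log2 units per day (SE 0.012, adjusted p = 1.10e-06), and without P0 by 0.096 (adjusted p = 1.48e-04).

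*Map2*, the dendritic MAP, fell as well, at a lower level. It had 39.1, 31.0 and 26.7 RPKM at P0, 30.8, 27.4 and 27.1 at P4, 20.03, 18.7 and 13.97 at P8, 12.8, 12.9 and 13.2 at P14, and 10.6, 12.7 and 9.91 at P21. The samples of P0 and P4 overlapped, and from P4 on each time point lay wholly below the one before. The mean fell from 32.3 ± 6.29 RPKM to 11.1 ± 1.45, to 0.343 of the P0 level, and the trend fell by 0.079 log2 units per day (SE 0.0094, adjusted p = 4.95e-06). The spread between samples of a time point, an SD of 0.198 in log2 CPM, was below that of all but 3.26% of the genes compared.

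*Map1a*, named for the same family as *Map1b*, rose. It had 4.74, 14.3 and 5.90 RPKM at P0, 13.1, 14.2 and 12.4 at P4, 18.4, 16.2 and 16.05 at P8, 27.4, 16.5 and 21.2 at P14, and 27.4, 34.0 and 23.5 at P21. All samples at P21 were above all samples of P0, P4 and P8, and P0 replicate 2 reached the level of P4. The mean rose from 8.31 ± 5.22 RPKM at P0 to 28.3 ± 5.32 at P21, 3.403-fold, and the trend rose by 0.079 log2 units per day (SE 0.014, adjusted p = 3.61e-04). Without P0 the slope was 0.065 (adjusted p = 6.45e-04).

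*Mapt*, encoding tau, was not called for a trend. It had 155.4, 205.3 and 148.3 RPKM at P0, 116.7, 104.6 and 145.3 at P4, 113.4, 88.1 and 100.7 at P8, 137.3, 77.9 and 79.9 at P14, and 112.2, 139.9 and 137.5 at P21. The P0 samples were above all others, and the samples from P4 to P21 overlapped. The slope was −0.016 with a 95% interval from −0.041 to 0.0079 log2 units per day (adjusted p = 0.336), and 0.0087 without P0. With the time points as separate groups the adjusted p was 0.0652, and it lay below 0.05 in 7 of 21 alternative fits.

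**Figure D2:**
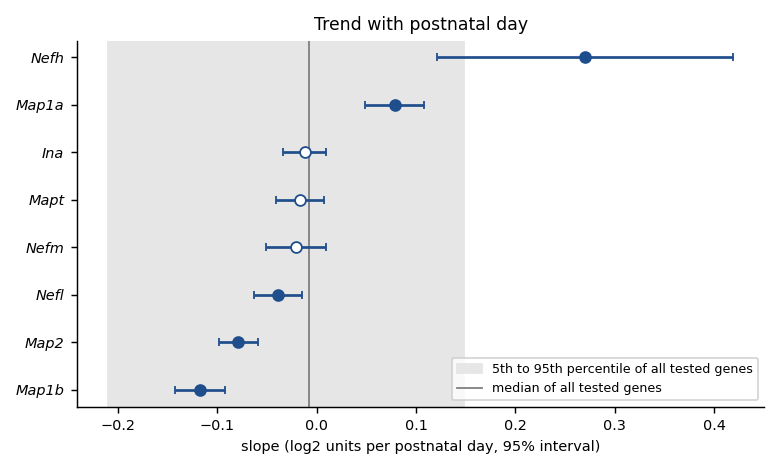
Slope of log2 level per postnatal day (horizontal axis) for the 8 genes, with 95% intervals. Filled points passed an adjusted p of 0.05, the grey band holds the 5th to 95th percentile of the slopes of all tested genes and the line is their median. *Nefh* lies to the right of the band, and *Map1a*, *Nefl*, *Map2* and *Map1b* were called within it.

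Within a sample, the ratio of *Map1a* to *Map1b* RPKM was higher on average at each time point than at the one before. It was 0.0106, 0.0412 and 0.0186 at P0, 0.0548, 0.0693 and 0.0614 at P4, and 0.155, 0.115 and 0.110 at P8. It was 0.303, 0.250 and 0.317 at P14, and 0.501, 0.592 and 0.249 at P21. The samples did not overlap between time points up to P14, and at P21 replicate 3, the sample with the highest *Map1b* and lowest *Map1a* of that day, was at the level of P14. The mean ratio went from 0.0235 ± 0.0159 to 0.447 ± 0.177 (SD, n = 3), and was 0.0146 at P0 without replicate 2. *Map1b* remained the more abundant transcript of the pair in every sample. The ratio of *Map2* to *Mapt* was 0.194 ± 0.0518 at P0, 0.237 ± 0.0441 at P4, 0.176 ± 0.0369 at P8. It was then 0.141 ± 0.0416 at P14, with replicate 1 (0.0935) at the level of P21, and 0.0857 ± 0.0119 at P21. These ratios are descriptions without a test.

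**Figure D3:**
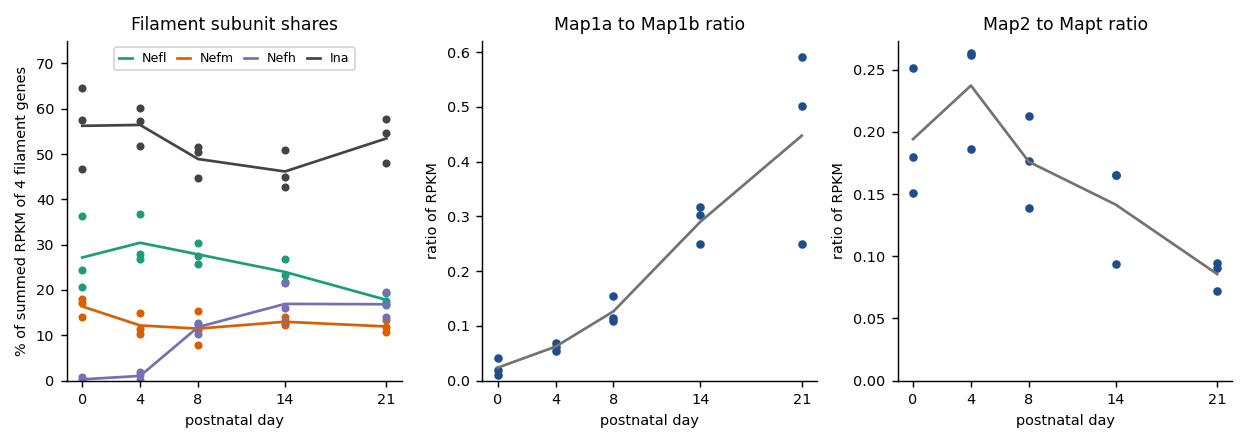
Composition by postnatal day (horizontal axis) in single samples (points) with the mean of 3 samples (lines). The left panel gives the share of each subunit in the summed RPKM of the 4 filament genes in percent, and the other panels the ratio of *Map1a* to *Map1b* RPKM and of *Map2* to *Mapt* RPKM. The *Nefh* share goes from 0.261%, which rests on P0 replicate 2, to 16.8%, and the *Map1a* to *Map1b* ratio from 0.0235 to 0.447.

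Between neighbouring time points 1 of the 32 member tests was called, the fall of *Map1b* from P8 to P14 (log2 −0.86, SE 0.206, adjusted p = 0.0338). From P8 to P14, 1.38% of tested genes were lower and 1.29% higher. This call was lost when any P8 sample, P14 replicate 2 or P14 replicate 3 was left out (adjusted p from 0.0572 to 0.171), with log2 changes of −0.78 to −0.94. From P0 to P4 none of the 8 genes was called, by edgeR's test that called 1.74% of genes higher and 0.231% lower, and 2 of the 8 had an unadjusted p below 0.05, as had 14.9% of all genes. From P4 to P8 none was called, beside 0.882% of all genes called higher and 0.252% lower. At an unadjusted p below 0.05 stood 4 of the 8 and 11.8% of all genes. From P14 to P21 none was called by edgeR, DESeq2 or limma-voom, beside 0.063% of all genes called higher and 0.266% lower by edgeR. At an unadjusted p below 0.05 stood 1 of the 8 and 7.02% of all genes.

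Besides that of *Nefh* from P4 to P8, the steps nearest to a call were those of *Map1b* from P0 to P4 (log2 −0.78, SE 0.205, adjusted p = 0.0679) and from P4 to P8 (log2 −0.67, SE 0.205, adjusted p = 0.164), and of *Map2* from P4 to P8 (log2 −0.69, SE 0.185, adjusted p = 0.0915). DESeq2 and limma-voom called these 3 steps of *Map1b* and *Map2*, with adjusted p from 0.00161 to 0.0394, but not that of *Nefh*. Without P0 replicate 2, whose *Map1a* and *Nefh* levels were the highest of P0, edgeR also called the rise of *Map1a* from P0 to P4 (log2 1.29, adjusted p = 0.0124) and that of *Nefh* (adjusted p = 0.00582). After P14 no step of *Map1b* or *Nefh* was called (log2 −0.11, SE 0.204, and log2 0.14, SE 0.875).

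**Figure D4:**
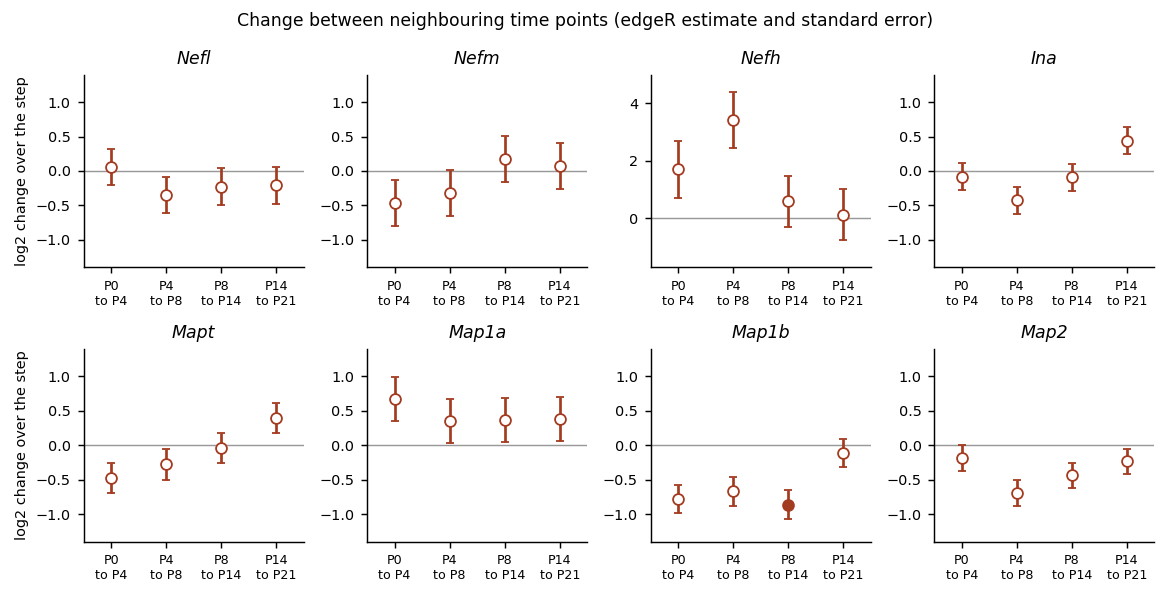
Log2 change between neighbouring time points (vertical axis, with a wider range for *Nefh*) for each of the 8 genes, as the edgeR estimate with its standard error. The filled point is the called step, *Map1b* from P8 to P14. The *Nefh* estimate is highest from P4 to P8, the *Map1b* estimates are below 0 in every step, and those of *Map1a* lie between 0.35 and 0.67.

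The order of levels at P0 ran from *Map1b* (371 RPKM) over *Ina* (336), *Mapt* (169.7), *Nefl* (165), *Nefm* (97.6), *Map2* (32.3) and *Map1a* (8.31) to *Nefh* (1.66). The samples of *Map1b* and *Ina*, of *Mapt* and *Nefl*, and of *Map1a* and *Nefh* overlapped, and those of the other neighbours in this order did not. At P21 the order was *Ina* (300.6), *Mapt* (129.9), *Nefl* (100.1), *Nefh* (95.1), *Map1b* (68.8), *Nefm* (67.3), *Map1a* (28.3) and *Map2* (11.1). The samples of *Nefl* and *Nefh*, of *Nefh* and *Map1b*, and of *Map1b* and *Nefm* overlapped there. *Map2* was thus above *Map1a* at P0 and P4, and below it at P14 and P21, with no overlap of samples on these days. At P8 their means were 17.6 and 16.9 RPKM and their samples overlapped. This order depends on the exon lengths taken. In CPM, without regard to length, the P14 samples overlapped, with *Map1a* at 333.7, 201.3 and 257.4 and *Map2* at 211.1, 211.8 and 217.9. At P8 all *Map2* samples were then above those of *Map1a*, the nearest being 229.9 and 224.0 CPM. With the shorter *Nefm* length and the full *Nefl* length, *Nefm* would stand at 117 RPKM at P21, above *Nefl*. The 1108 shared bases are also 32.8% of the *Nefl* exon length, and a shorter *Nefl* length was not tried. The order of these 2 genes is thus uncertain.

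P14 replicate 1 was the highest of its 3 samples in 7 of the 8 genes, *Map2* being the exception, and P14 replicate 2 was the lowest in 7. The median log2 deviation of the 8 genes from the mean of their time point was 0.36 and −0.32 in these samples. The granule neuron markers summed to 405 CPM in P14 replicate 1, 992 in replicate 2 and 437 in replicate 3, and the PC markers to 35214, 30749 and 36093 CPM. The part of these values in the spread at P14 was not tested.

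Over the 15 samples, Pearson's r of log2(CPM + 1) between *Nefh* and *Map1a* was 0.913 and between *Map1b* and *Map2* 0.920, while *Map1b* and *Map1a* had −0.858. These values share the libraries and the age axis and are given as descriptions. Among 9732 genes with a mean of at least 10 CPM, those most like *Nefh* were *Plxdc1* (r = 0.983), *Ahcyl2* (0.971) and *Fgf1* (0.956), and those most like *Map1a* were *Mtmr7* (0.953), *Erlec1* (0.950) and ENSMUSG00000071567 (0.948), which has no symbol in the annotation used. The genes most like *Map1b* were *Tubb5* (0.964), a beta-tubulin, *Stmn1* (0.963), which binds tubulin dimers, and *Dpysl5* (0.961), a collapsin response mediator protein. *Map2* was followed by *Hmgb2* (0.967), *Rpl9-ps7* (0.962), a pseudogene that can share reads with its parent, and *Cdkn1c* (0.961). For the genes with little change the likeness was lower, with *Gdi2* (0.9002), *Rfx7* (0.881) and *2410002F23Rik* (0.865) for *Nefl*, *Cep89* (0.825), *Prickle2* (0.786) and *Heatr1* (0.761) for *Nefm*, *Ebf2* (0.853), *Rtn1* (0.802) and *Brwd1* (0.790) for *Ina*, and *H2afx* (0.846), *L3mbtl3* (0.823) and *Ebf2* (0.792) for *Mapt*.

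Other genes of the same cytoskeletal systems were examined as lists, with the same trend test. Over all tested genes 12.1% rose and 14.1% fell, with a median slope of −0.0077. Of 17 further MAP genes, 3 rose, 4 fell and 10 were not called, and the median slope was −0.013. *Map7d2*, which recruits kinesin to microtubules, rose from 20.3 ± 4.61 to 131 ± 6.84 RPKM between P0 and P21 (adjusted p = 4.41e-07), *Tppp* from 4.29 ± 2.48 to 17.3 ± 2.99 (adjusted p = 7.76e-04) and *Map4* from 19.7 ± 0.609 to 34.0 ± 8.47 (adjusted p = 9.54e-04). *Dcx*, the doublecortin of immature neurons, fell from 52.3 ± 7.19 to 0.0453 ± 0.0268 RPKM (adjusted p = 7.00e-07), and *Dclk2* from 10.8 ± 3.58 to 1.85 ± 1.14 (adjusted p = 9.71e-05). *Map7d3*, with 116 counts over all samples, fell from 2.15 ± 2.66 RPKM at P0 to no count at P21 (adjusted p = 0.00404). Its P0 and P21 samples overlapped.

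Of 17 genes of microtubule end-binding and destabilising proteins, 3 rose, 7 fell and 7 were not called, where 12.1% of all tested genes rose and 14.1% fell. The median slope was −0.022, beside −0.0077 for all tested genes. The end-binding proteins moved in opposite directions: *Mapre1* fell from 49.2 ± 6.01 to 10.6 ± 3.23 RPKM (adjusted p = 1.83e-06), while *Mapre3* rose from 9.54 ± 1.87 to 56.5 ± 15.4 (adjusted p = 9.18e-07) and *Mapre2* from 17.5 ± 2.70 to 34.3 ± 4.95 (adjusted p = 0.00215). Among the stathmins, *Stmn1* fell from 509 ± 52.4 to 40.1 ± 11.7 RPKM (adjusted p = 3.67e-08) and *Stmn3* rose from 1224 ± 187 to 2158 ± 180.1 (adjusted p = 0.00246). *Kif2c*, a mitotic depolymerising kinesin, fell from 3.46 ± 3.13 RPKM to no count at P21 (adjusted p = 0.00379).

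Of 13 tubulin genes, 4 rose, 5 fell and 4 were not called, where 12.1% of all tested genes rose and 14.1% fell. The median slope was −0.034, beside −0.0077 for all tested genes. *Tuba1a*, the main alpha-tubulin of young neurons, fell from 7438 ± 246 to 255 ± 103 RPKM (adjusted p = 1.05e-09), *Tubb2b* from 518 ± 60.6 to 21.7 ± 14.9 (adjusted p = 6.34e-08) and *Tuba1c* from 17.0 ± 4.29 to 0.445 ± 0.273 (adjusted p = 1.84e-06). *Tuba4a* rose from 7.68 ± 0.633 to 175 ± 54.1 RPKM (adjusted p = 3.30e-04), *Tuba8* from 3.17 ± 3.31 to 227 ± 45.7 (adjusted p = 0.00318) and *Tubb4b* from 102 ± 5.47 to 185 ± 49.1 (adjusted p = 0.0114). Tubulin genes are close paralogs, and only uniquely mapping reads were counted, so their levels are uncertain.

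Of 14 genes of tubulin-modifying enzymes, 3 rose, 4 fell and 7 were not called, where 12.1% of all tested genes rose and 14.1% fell. The median slope was −0.035, beside −0.0077 for all tested genes. The polyglutamylases *Ttll5* (0.979 ± 0.605 to 20.99 ± 5.79 RPKM, adjusted p = 1.01e-05) and *Ttll7* (3.36 ± 0.200 to 38.0 ± 9.66, adjusted p = 4.45e-08) rose, as did *Agtpbp1*, the deglutamylase lost in the Purkinje cell degeneration mouse (2.05 ± 0.796 to 6.96 ± 0.860, adjusted p = 6.54e-05). *Vash2* (6.47 ± 3.02 to 0.229 ± 0.397, adjusted p = 0.00194) and its partner *Svbp* (113 ± 21.03 to 19.7 ± 4.43, adjusted p = 5.76e-07), which remove the tyrosine of alpha-tubulin, and the tubulin acetylase *Atat1* (64.4 ± 6.58 to 14.7 ± 7.45, adjusted p = 5.85e-05) fell.

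Of 8 genes of other intermediate filament proteins 7 were tested. Of these 3 fell and 4 were not called, where 14.1% of all tested genes fell and 12.1% rose. The median slope was −0.0048, beside −0.0077 for all tested genes. *Prph*, the peripheral neuron filament, had 15 counts over all samples and was not tested. *Nes* fell from 8.47 ± 2.81 to 0.202 ± 0.322 RPKM (adjusted p = 1.35e-04), *Vim* from 144 ± 17.4 to 26.6 ± 9.09 (adjusted p = 4.10e-06) and *Lmnb1* from 4.46 ± 2.30 to 0.208 ± 0.182 (adjusted p = 0.00464). *Nes* and *Vim* are also expressed by glia, whose marker *Fabp7* went from 2687 to 186 CPM between P0 and P21 (adjusted p = 5.42e-04) and whose marker *Slc1a3* went from 1439 to 2511 CPM (adjusted p = 0.0144). The part of glial RNA in these falls was not tested.

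**Figure D5:**
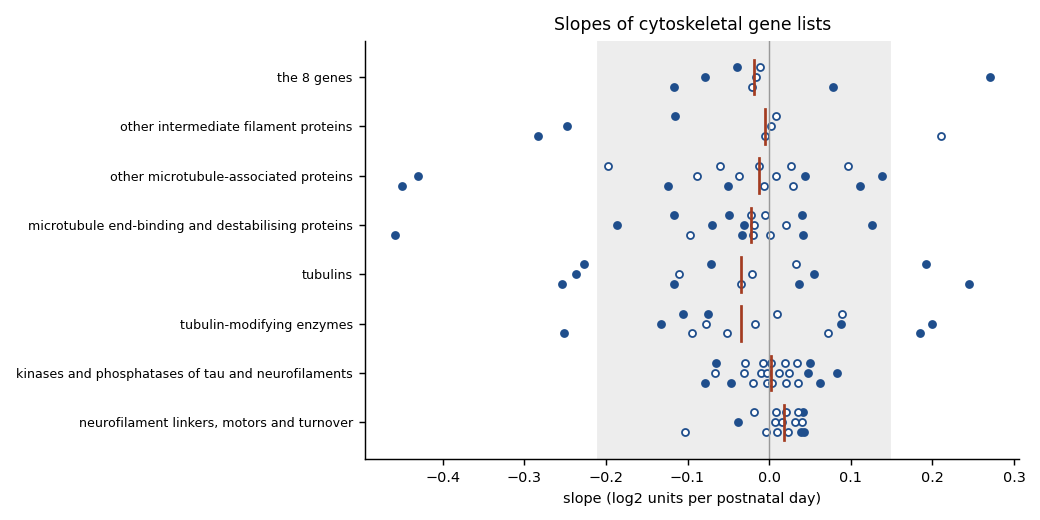
Slope of log2 level per postnatal day (horizontal axis) for the tested genes of each cytoskeletal list, 1 point per gene, with the list median as a red bar. Filled points passed an adjusted p of 0.05 and the grey band holds the 5th to 95th percentile of all tested genes. Called genes stand on both sides of 0 in every list except the other intermediate filament proteins, where the 3 called genes fell.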

How the data were processed

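RNA from PCs cut out by laser was sequenced at 5 ages with 3 samples each, labelled by time point and replicate, and described as biological replicates. Per the labels and the methods, the authors prepared libraries with the SMARTer Ultra Low kit, trimmed reads with the FASTX Toolkit and cutadapt 1.2.1, aligned them to GRCm38/mm10 with GSNAP and counted uniquely mapping reads per Ensembl gene with HTSeq 0.5.3p9 in intersection-strict mode. The deposited values are these raw counts without normalization. The annotation release and strand setting are not given in the sources used here. The 5 tally rows of each file were kept out of library sizes and tests. Reads not fully contained in an annotated feature made up 16.7% to 29.8% of the tally with the gene counts.

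GENCODE M21 gave symbols for 36639 of 38561 identifiers, positions and summed exon lengths. Counts were tested with edgeR 4.0.16 (R 4.3.3) by quasi-likelihood after TMM normalization and filterByExpr, with Benjamini-Hochberg adjustment at 0.05 over 14293 genes, first with day as a number, then with the time point as a group, then per step. Scripts were tested on simulated data. Alternatives used DESeq2 1.42.0, limma 3.58.1, other scalings, no filter, a replicate block, log2(day + 1), no P0, and each sample left out. P-values judge a change against the spread between these samples, which was estimated with information shared across genes. A count of 0 allows up to 3 counts of the library, and this floor covers counting error only. RPKM was computed here from TMM-scaled library sizes. Replicate pairs differed beyond sampling noise, with a chi-square per gene of at least 18.4.

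The 8 genes, the gene lists and the markers were chosen with earlier results of these data known. In each list up to 3 rising and 3 falling genes with the steepest called slopes are named, and for each of the 8 genes the 3 genes with the highest r over 15 samples.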

Additional observations from a re-analysis of the deposited data

How the results depend on the processing

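Of 1024 alternative member values, 962 kept their direction and side of the threshold, 7 lost and 30 gained a call, and 25 reversed. Total-count scaling moved the all-gene median from P0 to P21 from −0.11 to −0.46 log2 and the trend calls from 1729 rising and 2021 falling to 1230 and 2874, with *Ina* and *Mapt* then falling (adjusted p = 0.0365 and 0.0376), and limma-voom gave 2238 and 1807. With 3 samples per time point and a biological coefficient of variation of 0.705, steps were the weakest tests. Genes called per step (main 281, 162, 382 and 47 in time order) were 785, 496, 844 and 173 by DESeq2, and 17 by limma-voom for P14 to P21.

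Reversed values concern uncalled changes: *Nefl* from P0 to P4 (−0.0052 with DESeq2 size factors, −0.035 with total counts, −0.0051 by DESeq2), *Nefm* from P14 to P21 (−0.020 with total counts), and the slopes of *Nefm* (0.0024) and *Mapt* (0.0087) without P0. Leaving out 1 sample, trend calls ran from 1570 to 1814 rising and 1800 to 2161 falling, calls of any change from 2263 to 2728, and calls per step from 186 to 302, 74 to 201, 163 to 441 and 24 to 68. The steps moved by over 1.5 times without P4 replicate 1 (186 from P0 to P4), without P4 replicate 3 (106) or any P8 sample (74 to 103) from P4 to P8, without any P8 or P14 sample (163 to 239) from P8 to P14, and without any P14 sample or P21 replicate 1 or 2 (24 to 31) from P14 to P21. Log2 changes with 1 sample left out ranged for *Nefl* P0 to P4 from −0.17 to 0.41, *Ina* P0 to P4 from −0.26 to 0.064 and P8 to P14 from −0.29 to 0.016, *Nefm* P4 to P8 from −0.72 to 0.040, P8 to P14 from −0.18 to 0.58 and P14 to P21 from −0.12 to 0.42, *Mapt* P8 to P14 from −0.35 to 0.11, *Map1b* P14 to P21 from −0.41 to 0.050 and *Nefh* P14 to P21 from −0.15 to 0.66.

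Counts without length gave shares of 16.3% for *Nefl* at P21, of 25.6%, 19.5%, 18.0%, 20.1% and 18.6% for *Nefm* at the 5 time points and of 50.8%, 43.4%, 40.1% and 46.9% for *Ina* from P4, *Map1a* to *Map1b* ratios of 0.0475, 0.0971 and 0.223 from P4 to P14, and *Map2* to *Mapt* ratios of 0.424, 0.518, 0.384, 0.309 and 0.187. The shorter *Nefm* length was chosen after seeing the data, and the *Nefl* length was left unchanged. It gave *Nefm* 25.3%, 19.3%, 18.2%, 20.5% and 19.0%, *Nefl* 16.4% at P21 and *Ina* 51.8% at P4 and 45.2% at P8.

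Same-numbered samples did not deviate together (r from −0.048 to 0.085, 4 of 15 samples closest to their own number). The replicate block gave 1723 rising and 1911 falling genes, 2552 with any change and 226, 125, 338 and 35 per step, and changed no member call.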

Other observations

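Of 23 genes for kinases and phosphatases of tau and neurofilaments, 4 rose, 3 fell and 16 were not called. Among all tested genes 12.1% rose and 14.1% fell. In log2 units per day, this list had a median slope of 0.0026 and all tested genes one of −0.0077. *Cdk5*, a proline-directed kinase of neurofilament tails and tau, rose from 39.8 ± 25.5 to 83.0 ± 11.1 RPKM between P0 and P21 (SD, n = 3, adjusted p = 0.0292 in edgeR's test). Its activators went opposite ways, *Cdk5r1* falling from 85.0 ± 8.34 to 44.4 ± 12.2 RPKM (adjusted p = 0.0146) and *Cdk5r2* rising from 3.11 ± 3.33 to 10.7 ± 3.79 (adjusted p = 0.0318). Of the JNK kinases, *Mapk10* rose from 9.72 ± 1.77 to 23.4 ± 2.90 RPKM (adjusted p = 2.11e-04) and *Mapk8* fell from 7.44 ± 2.49 to 3.24 ± 1.54 (adjusted p = 0.0112). *Ppp2r2b*, a regulatory subunit of protein phosphatase 2A, fell from 37.7 ± 10.4 to 15.6 ± 1.399 RPKM (adjusted p = 3.76e-04).

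Of 16 genes for neurofilament linkers, motors and turnover, 3 rose, 1 fell and 12 were not called, where 12.1% of all tested genes rose and 14.1% fell. The median slope was 0.018, beside −0.0077 for all tested genes. The chaperone *Hspa8* rose from 155 ± 22.8 to 287 ± 117 RPKM (adjusted p = 0.0103), the dynactin subunit *Dctn1* from 15.2 ± 0.103 to 29.2 ± 4.72 (adjusted p = 0.0158) and the cytolinker *Dst* from 4.53 ± 0.306 to 7.72 ± 0.984 (adjusted p = 0.00257). The heavy chain of cytoplasmic dynein, *Dync1h1*, fell from 20.7 ± 4.30 to 11.5 ± 2.57 RPKM (adjusted p = 0.00937).

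*Map1a*, *Map1b* and *Map2* have more than 8000 exon bases, and *Mapt* has 7531. Among 2096 genes with at least 8000 exon bases the median slope was −0.0051. It was −0.0019 for all genes with a mean of at least 10 CPM.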
